A study of Rattus norvegicus with 61 samples.

Results

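The regions described here are 7763 stretches of rat islet chromatin listed far from a gene and in which H3K27Ac was listed as different between islets of intrauterine growth-restricted (IUGR) and control rats. They were chosen by a rule that used the authors' own differential calls and one distance. Every unique H3K27Ac region of the 2-wk and of the 10-wk comparison was taken at its smallest listed distance to a transcription start site (TSS), and it was kept when that distance was over 20 kb. The rule kept 3528 of 9335 H3K27Ac regions at 2 weeks and 4235 of 10689 at 10 weeks, out of 61324 differential regions listed for 3 histone marks and 2 ages. To produce IUGR, the uterine arteries of Sprague Dawley dams were ligated on both sides during pregnancy, while control dams were sham-operated. Islets came from their offspring. For H3K27Ac, 3 control and 3 IUGR libraries were compared at each age, and the whole study holds 61 libraries, of which 34 are ChIP and 27 are input chromatin. Each library pooled the islets of littermates, of both sexes at 2 weeks and of male rats at 10 weeks, so age and sex cannot be told apart. Isolated islets hold endocrine cells together with vessel, stromal, immune and residual exocrine cells, and no level of any marker is given in the table, so the cell type behind a region was not tested.

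H3K27Ac is the acetylation of lysine 27 on histone H3, placed mainly by the acetyltransferases p300 and CBP on nucleosomes at active promoters and active enhancers. H3K4me3 marks promoters, and H3K27me3, placed by Polycomb repressive complex, marks silent genes and poised elements. Acetylated sites far from promoters are therefore commonly read as candidate enhancers, DNA elements that can act on a promoter over long distances, and in islets such elements lie around the genes of endocrine identity and at many loci linked to diabetes. The names of regions here refer to the gene at the smallest listed distance, called the neighbouring gene, and no value shows that a region acts on it. The table gives a position and a distance for each region but no value per library, so the depth behind the regions is unknown, no replicate spread exists, and all results are descriptions of positions. Intervals are exact 95% binomial intervals that cover counting error over regions only, and neighbouring regions are not independent of each other.

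Distal regions were 37.8% (36.8 to 38.8) of all listed H3K27Ac regions at 2 weeks and 39.6% (38.7 to 40.6) at 10 weeks. By the same rule, 48.8% of H3K4me3 and 54.1% of H3K27me3 regions were distal at 2 weeks, and 25.5% and 44.6% at 10 weeks. The distal share of H3K27Ac thus moved little between ages, while it was the lowest of the 3 marks at 2 weeks and lay between the others at 10 weeks. The median distance of a distal H3K27Ac region was 66.5 kb at 2 weeks and 60.6 kb at 10 weeks, with quartiles of 36.4 and 145 kb and of 33.9 and 130 kb. Most lay within 100 kb of the neighbouring gene, with 1344 regions between 20 and 50 kb, 921 between 50 and 100 kb, 1078 between 100 and 500 kb, and 185 beyond 500 kb at 2 weeks. At 10 weeks, these classes held 1773, 1084, 1175 and 203 regions. Slightly fewer regions lay upstream than downstream of the neighbouring gene, 45.8% at 2 weeks and 44.9% at 10 weeks, where the strand was read from the sign of the distance. The strand agreed for 94.7% of the 11412 genes on which it was checked, so some upstream and downstream labels may be wrong. The median width was 1200 bp at 2 weeks and 1100 bp at 10 weeks for the 2105 and 2507 regions whose end could be derived, and the widest reached 8100 and 11700 bp. Of these regions, 36.5% and 37.0% were exactly 1000 bp wide, and the derivation took no shorter width. The other H3K27Ac classes had medians of 1100 to 1400 bp, so the widths are not particular to distal regions.

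**Figure D1:**
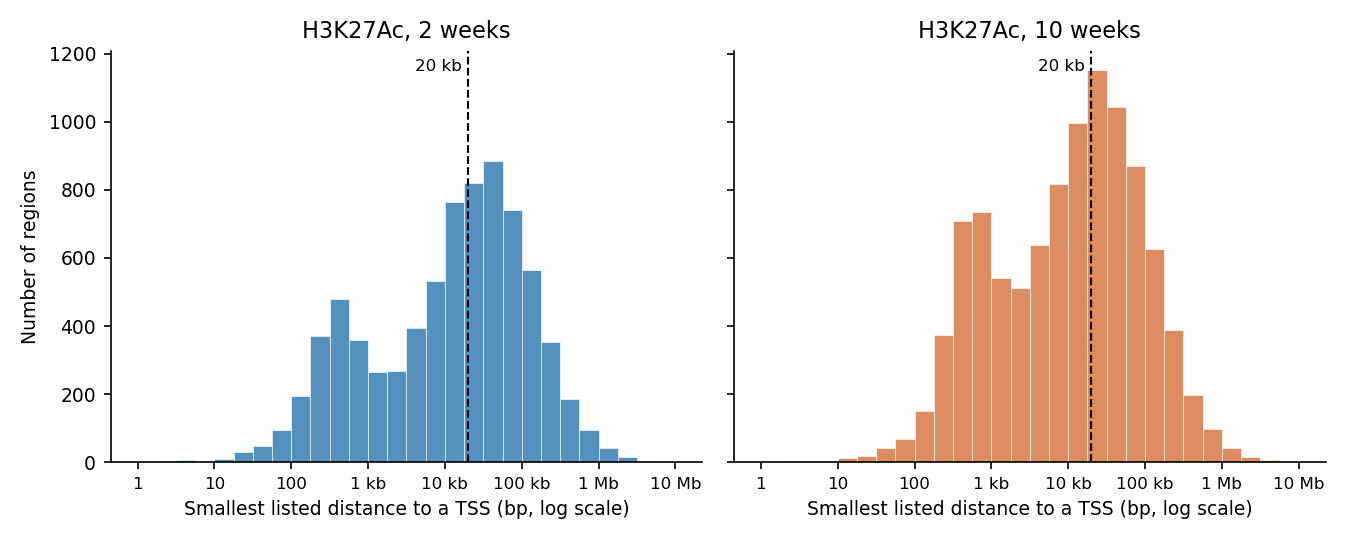
Number of H3K27Ac regions by smallest listed distance to a TSS, in bins on a log scale, at 2 weeks (left) and 10 weeks (right), regions that cover a TSS left out. Both ages have one hump below and one above 1 kb, and the dashed line at 20 kb, beyond which 3528 and 4235 regions lie, falls inside the higher hump.

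The line at 20 kb does not divide separate groups of regions. At 2 weeks, the closest distal regions with a named neighbour were listed 20004 bp from Dgcr2 and 20015 bp from Ctla4, an inhibitory receptor of T cells, while the regions beside Gper1, a membrane estrogen receptor, and Evl, an actin regulator, fell just short at 19990 and 19979 bp. At 10 weeks, the regions beside Has3, a hyaluronan synthase, and Tctn1, a protein of the ciliary transition zone, were just inside at 20004 and 20037 bp, and those beside Tmem178b and Ctnnbip1, an inhibitor of beta-catenin, just outside at 19966 and 19950 bp. Dgcr2 is placed on more than 1 chromosome by the table, and the derived TSS closest to its region was that of Adam6, at 50850 bp. The region listed for Has3 lay 2880 bp from the TSS of Chtf8.

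The listed distance was often not the distance to the closest gene, because the table lists a region only for genes to which it is the nearest region on one side. When distances were recomputed to every TSS that could be derived from the table, 454 of 3522 placed regions (12.9%) at 2 weeks and 394 of 4229 (9.32%) at 10 weeks lay within 20 kb of another gene's TSS. Of these, 179 and 116 lay within 5 kb, and 15 at 2 weeks covered a derived TSS, with an assumed end where none could be derived. A region over the TSS of a gene would be listed for that gene, so the way of listing does not cover these 15, and their source was not tested. The closest gene was the listed one for 64.5% of regions at 2 weeks and 69.2% at 10 weeks. The most remote regions showed this clearly. The farthest 2-wk region, listed 5.12 Mb from Adgrb3, an adhesion receptor of neurons, starts 615 bp from the TSS of Phf3. The one listed 4.15 Mb from Cntnap5c, a neurexin-family protein, has no other derived TSS within 1 Mb. At 10 weeks, the farthest regions were listed 6501400 bp from Pabpc4l, 4.68 Mb from the small GTPase Rras2 and 4.31 Mb from Tmeff2, and the last pair lay 35269 bp from Copb1 and 35034 bp from the zinc transporter Slc39a10. With only regions beyond 20 kb of every derived TSS, 3068 and 3835 remained, at a median of 58.2 and 52.6 kb from the closest one. In the paragraphs on genes below, a closer gene by recomputed distance is named for only some of the regions that have one.

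Few distal regions were found at the same place at both ages. Counting starts within 1 kb of each other, 212 of 3522 regions at 2 weeks (6.02%, 5.26 to 6.86) had a distal region of the 10-wk comparison beside them, and 211 of 4229 at 10 weeks (4.99%, 4.35 to 5.69) had one of the 2-wk comparison. Identical starts were found for 22 regions. With 10 kb allowed, 609 and 613 regions had a counterpart. Set against any listed H3K27Ac region of the other age, the shares between 20 and 50 kb were 8.43% and 5.71%, and between 100 and 500 kb they were 4.83% and 4.01%. Regions that did not cover a TSS but lay within 5 kb of one had a counterpart in 17.0% and 16.9% of cases, and their intervals lay above those of all distal classes at both ages. The share dropped most between regions up to 5 kb and those from 5 to 20 kb, which had 7.70% and 5.52%. Among the distal classes, regions between 50 and 100 kb had the highest share at both ages, 8.70% and 6.83%, and at 2 weeks the intervals of the classes up to 100 kb lay above that of regions between 100 and 500 kb.

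**Figure D2:**
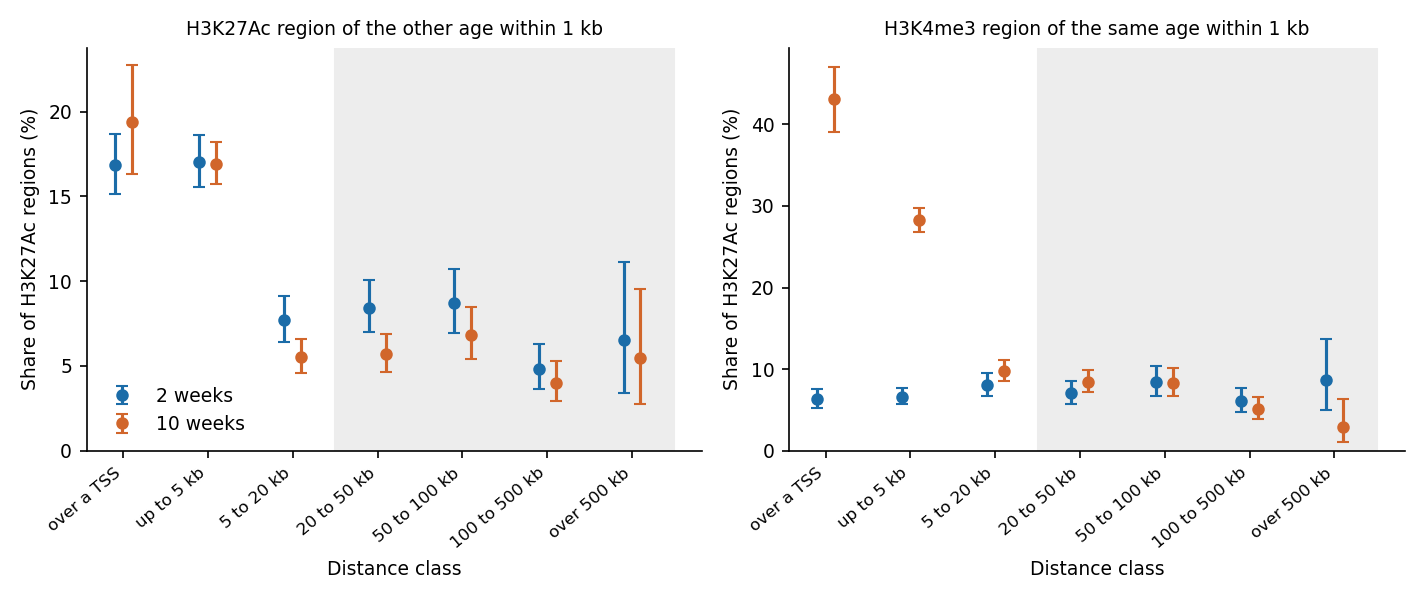
Share of H3K27Ac regions in each distance class with an H3K27Ac region of the other age (left) or an H3K4me3 region of the same age (right) starting within 1 kb, in %, with exact 95% binomial intervals, the distal classes on grey. On the left, regions over or up to 5 kb from a TSS sit at 16.9 to 19.4% and distal classes at 4.01 to 8.70%, and on the right, only the 10-wk regions over and up to 5 kb from a TSS stand high, at 43.1% and 28.2%.

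Examples of regions found at both ages are those that lay closest to a named gene at 2 weeks, all with starts within 1 kb by the way they were chosen. The region beside Nicn1 had the same start at both ages (chr8:117039501-117040500 at 2 weeks and chr8:117039501-117040700 at 10 weeks, rn6), 22.5 and 22.3 kb upstream of the TSS. The regions beside Nkd2, an antagonist of Wnt signalling, started 100 bp apart, 22.0 and 21.9 kb downstream. In the other pairs described, starts differed by 200 bp at Akr1c12l1, an aldo-keto reductase gene, by 400 bp for a region listed for Acp1 at 2 weeks and for the muscle methyltransferase gene Smyd1 at 10 weeks, by 700 bp at Trnau1ap, by 800 bp at Ppp1r13b, a partner of p53, and at Cd3e, a chain of the T cell receptor complex, and by 1000 bp at Exoc1, an exocyst subunit, and Phykpl. Of these, the Phykpl region lies 708 bp from the TSS of Hnrnpab and the Cd3e region 9867 bp from that of Mpzl2 when all derived TSS are used.

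Differential H3K4me3 was listed beside a small part of the distal regions. At 2 weeks, 254 of 3522 (7.21%, 6.38 to 8.12) had a 2-wk H3K4me3 region starting within 1 kb, and at 10 weeks, 306 of 4229 (7.24%) had a 10-wk one. The same share was 6.64% at 2 weeks and 28.2% at 10 weeks among H3K27Ac regions within 5 kb of a TSS, and 6.37% and 43.1% among those that covered one. The distal share stayed level between ages while the share at promoters differed widely between them. The number of listed H3K4me3 regions moved with this, 6789 at 2 weeks and 17548 at 10 weeks, and the 2-wk comparison of that mark had 2 control and 3 IUGR libraries where the 10-wk one had 3 of each, and their part in the result was not tested. H3K27me3 regions were beside 139 distal regions at 2 weeks (3.95%) and 161 at 10 weeks (3.81%), and both marks were beside 42 and 28. The 2-wk comparison of H3K27me3 had 3 control and 2 IUGR libraries and the 10-wk one 3 of each. Distal regions found at both ages more often had another mark beside them. H3K4me3 was beside 17.0% of them (12.2 to 22.7) at 2 weeks against 6.59% of the others, and beside 14.7% (10.2 to 20.2) against 6.84% at 10 weeks. For H3K27me3, the shares were 8.49% against 3.66% and 7.58% against 3.61%. These differences were not tested.

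Most distal regions stood alone. When distal regions of both ages were joined wherever the next start was within 12.5 kb, the 7751 placed regions formed 6871 groups, of which 6068 were single regions (78.3% of all placed regions), 731 were pairs and 72 held 3 or more regions, 221 in all. Both ages were present in 648 groups. The largest groups held 4 regions each, 2 of either age, and there were 5 of them. They lay next to Apcs, the serum amyloid P gene, over 5.1 kb of starts, next to Spdef, an ETS factor of secretory epithelia, and Pacsin1 over 8.4 kb, next to the connexin gene Gja6 on the X chromosome over 9.3 kb, next to the potassium channel gene Kcnk3 and Slc35f6 over 12.4 kb, and next to Rwdd1 over 14.5 kb. The group at Spdef began 27.2 kb from a TSS and that at Gja6 349 kb from one.

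The distal regions had 3206 neighbouring genes at 2 weeks, 18.4% of the 17411 listed genes, and 3790 at 10 weeks, 21.8%. A distal region lay on both sides of 322 and 445 of them. Of the 17411 listed genes, 1643 neighboured a distal region at both ages, 51.2% of the 2-wk and 43.4% of the 10-wk neighbours, and 157 of them (9.56%) had one found at both ages within 1 kb. A neighbouring gene can have its regions anywhere along wide flanks while a shared place is a window of 1 kb, so these counts are not compared with each other. Neighbouring genes were widely spaced. The median distance to the nearest TSS of another gene was 26.3 kb for all listed genes, 69.5 and 70.2 kb for the neighbours at 2 and 10 weeks, 94.8 kb for genes that were neighbours at both ages, and 18.3 kb for genes that were neighbours at neither. Among genes whose nearest other TSS was under 10 kb away, 7.20% at 2 weeks and 8.06% at 10 weeks neighboured a distal region, and among those 100 to 300 kb from the next, 41.6% and 47.9%. A gene with wide flanks can hold more of the genome closer to itself than to any other gene, so the counts of gene lists below are given with the spacing of their members. Each list is set beside the spacing class that holds its median, without matching of members, and the part of spacing in the counts was not tested. A stricter count of neighbours, with only regions beyond 20 kb of every derived TSS and their closest derived TSS, took 14.8% of all genes at 2 weeks and 18.2% at 10 weeks, and 36.0% and 42.4% of those 100 to 300 kb from the next gene.

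At the promoters of the neighbouring genes, the shares that had a region listed up to 5 kb from the TSS are given beside those of all listed genes, and the differences were not tested. For H3K27Ac of the other age, which the rule did not use, the shares were 21.6% of the 2-wk neighbours against 25.01% of all genes, and 24.7% of the 10-wk neighbours against 26.3%. For H3K4me3 of the same age, they were 11.3% against 12.6% at 2 weeks and 60.1% against 57.4% at 10 weeks, and for H3K27me3, 9.23% against 8.51% and 25.1% against 20.04%. These shares differed by a few percentage points from those of all genes, with the widest gap for H3K27me3 at 10 weeks. The shares for H3K27Ac of the same age, 9.45% against 26.3% and 12.5% against 25.01%, come from the distances that the rule used and are no result.

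**Figure D3:**
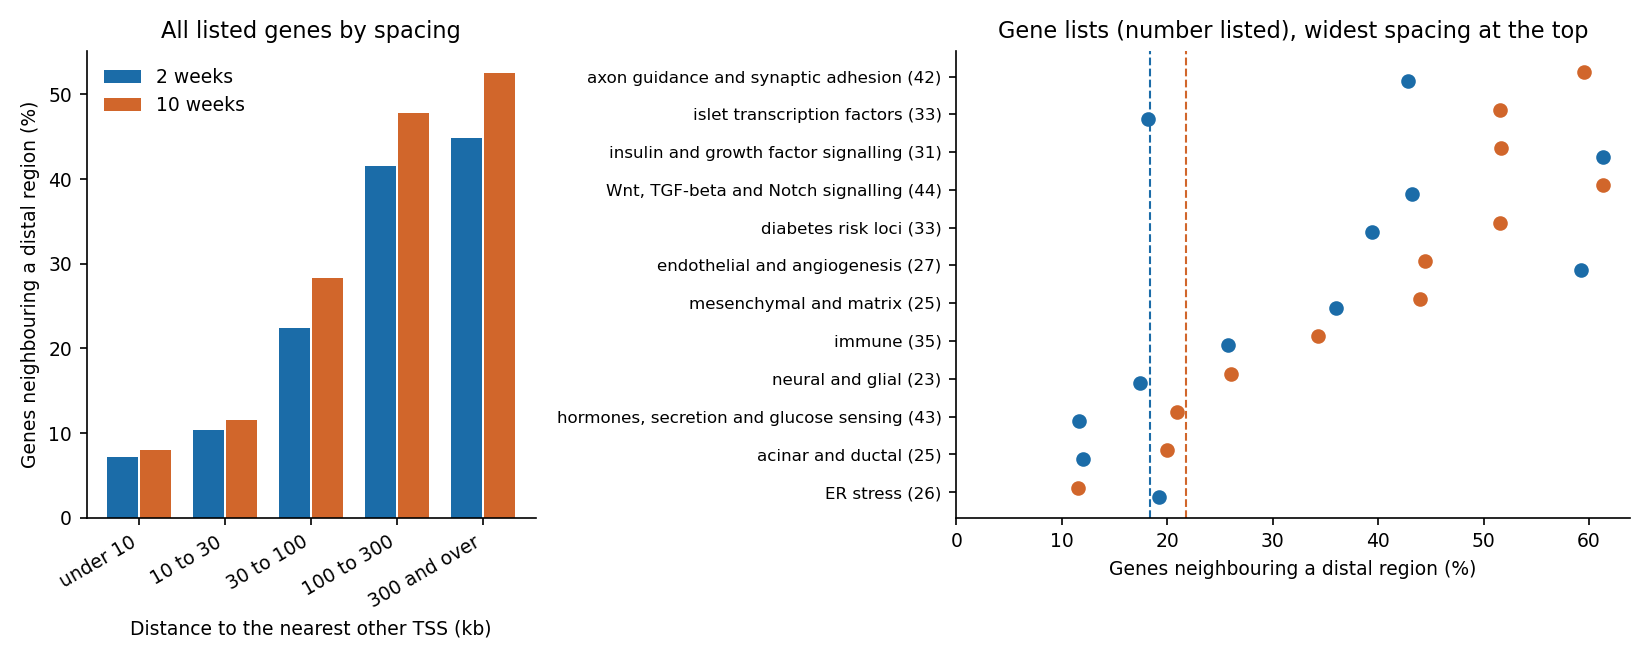
Left, share of all listed genes that neighbour a distal region, in %, by distance to the nearest other TSS. Right, the same share in 12 gene lists with their number of listed genes, sorted by median spacing, dashed lines at 18.4% (2 weeks) and 21.8% (10 weeks), where the 8 most widely spaced lists lie right of the line of each age, apart from islet transcription factors at 2 weeks (18.2%), and the other 4 lie left of it, apart from neural and glial genes at 10 weeks (26.1%) and endoplasmic reticulum stress genes at 2 weeks (19.2%).

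Of 33 listed transcription factors of islet development and identity, 6 (18.2%) were neighbours at 2 weeks, against 18.4% of all genes, and 17 (51.5%) at 10 weeks, against 21.8%. By the stricter count, 10 (30.3%) and 13 (39.4%) were neighbours, against 14.8% and 18.2%, so the gap between ages narrowed. The median spacing of these factors was 176 kb. Of genes 100 to 300 kb from the next, 41.6% and 47.9% were neighbours, and 36.0% and 42.4% by the stricter count. The list lay above that class at 10 weeks by the main count and below it otherwise, and the differences were not tested. Irx2, Ptf1a, Sox9 and Tcf7l2 had a distal region at both ages. Tcf7l2, the Wnt effector with the strongest common link to type 2 diabetes, had one 41.8 kb upstream at 2 weeks (chr1:276662001-276663000) and one 45.9 kb upstream at 10 weeks (chr1:276657701-276658900), 4300 bp apart, and another 177 kb downstream at 10 weeks. The places near this gene were thus close but not the same. Sox9, a factor of pancreatic progenitors and ducts, had a region 72.7 kb upstream at 2 weeks (chr10:101214201-101215800) with a differential H3K4me3 region 700 bp from it, and one 169 kb downstream at 10 weeks. Those of Ptf1a, a factor of acinar cells and early pancreas, lay 657 and 180 kb downstream. Those of Irx2, a factor of alpha cells, lay 515 kb upstream and 334 kb downstream, and both were closer to the TSS of another Iroquois gene, Irx1 and Irx4.

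Other factors of the pancreas had a distal region listed at 1 age. Pdx1, the factor required for the pancreas and for mature beta cells, had one 28.7 kb upstream at 10 weeks, and a differential H3K27me3 region of the same age started 400 bp from it. Sox4, a factor of endocrine progenitors, was flanked at 10 weeks at 369 kb upstream and 34.8 kb downstream. Foxa2, a pioneer factor of endoderm, had its region at 2 weeks, 42.4 kb upstream (chr3:142339701-142340900). Whether the ages differ at these genes was not tested, and a gene without a listed distal region may have one nearer to its TSS or under the authors' threshold.

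Of 43 listed genes of hormones, secretion and glucose sensing, 5 (11.6%) were neighbours at 2 weeks and 9 (20.9%) at 10 weeks, against 18.4% and 21.8% of all genes. With a median spacing of 39.0 kb, they lay below genes 30 to 100 kb from the next, of which 22.5% and 28.3% were neighbours. By the stricter count, these were 8 (18.6%) and 7 (16.3%), against 14.8% and 18.2% of all genes and 18.1% and 23.5% of genes with such spacing. Slc2a2, the glucose transporter of beta cells, was flanked at 10 weeks by regions 125 kb upstream (chr2:114287801-114289000) and 115 kb downstream (chr2:114528101-114529100), and the second started 300 bp from a distal region of 2-wk islets. Cacna1d, an L-type calcium channel of beta cells, had a region 26.4 kb downstream at 10 weeks, and its relative Cacna1c had regions 143 kb downstream at 2 weeks and 400 kb downstream at 10 weeks. Kcnj11, the pore of the ATP-sensitive potassium channel, had one listed 52.0 kb upstream at 10 weeks that lay 32187 bp from Abcc8, the gene of the other subunit of that channel. At 2 weeks, Scg2, a granin of secretory granules, was flanked at 25042 bp downstream and 169 kb upstream, and Chga, another granin, had a region 48.0 kb downstream. The upstream region of Scg2 lay 32739 bp from Ap1s3. Pcsk2, a prohormone convertase, was flanked at 10 weeks at 101 kb upstream and 329 kb downstream, the second region 20358 bp from Bfsp1. Ins1 was a neighbour at both ages only by distances of 1506 and 673 kb, with other genes in between. Ins2, the second insulin gene, is named here after its values were seen. A 2-wk region listed 219 kb downstream of Th (chr1:215859801-215861300), the gene of tyrosine hydroxylase, lay 1767 bp from the derived TSS of Ins2, so it is distal by the listed distance and close to the insulin gene by the recomputed one. The 10-wk region of Ins2 itself was listed 119768 bp upstream, 1600 bp from an H3K4me3 region, and Th was the closer gene when distances were recomputed.

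**Figure D4:**
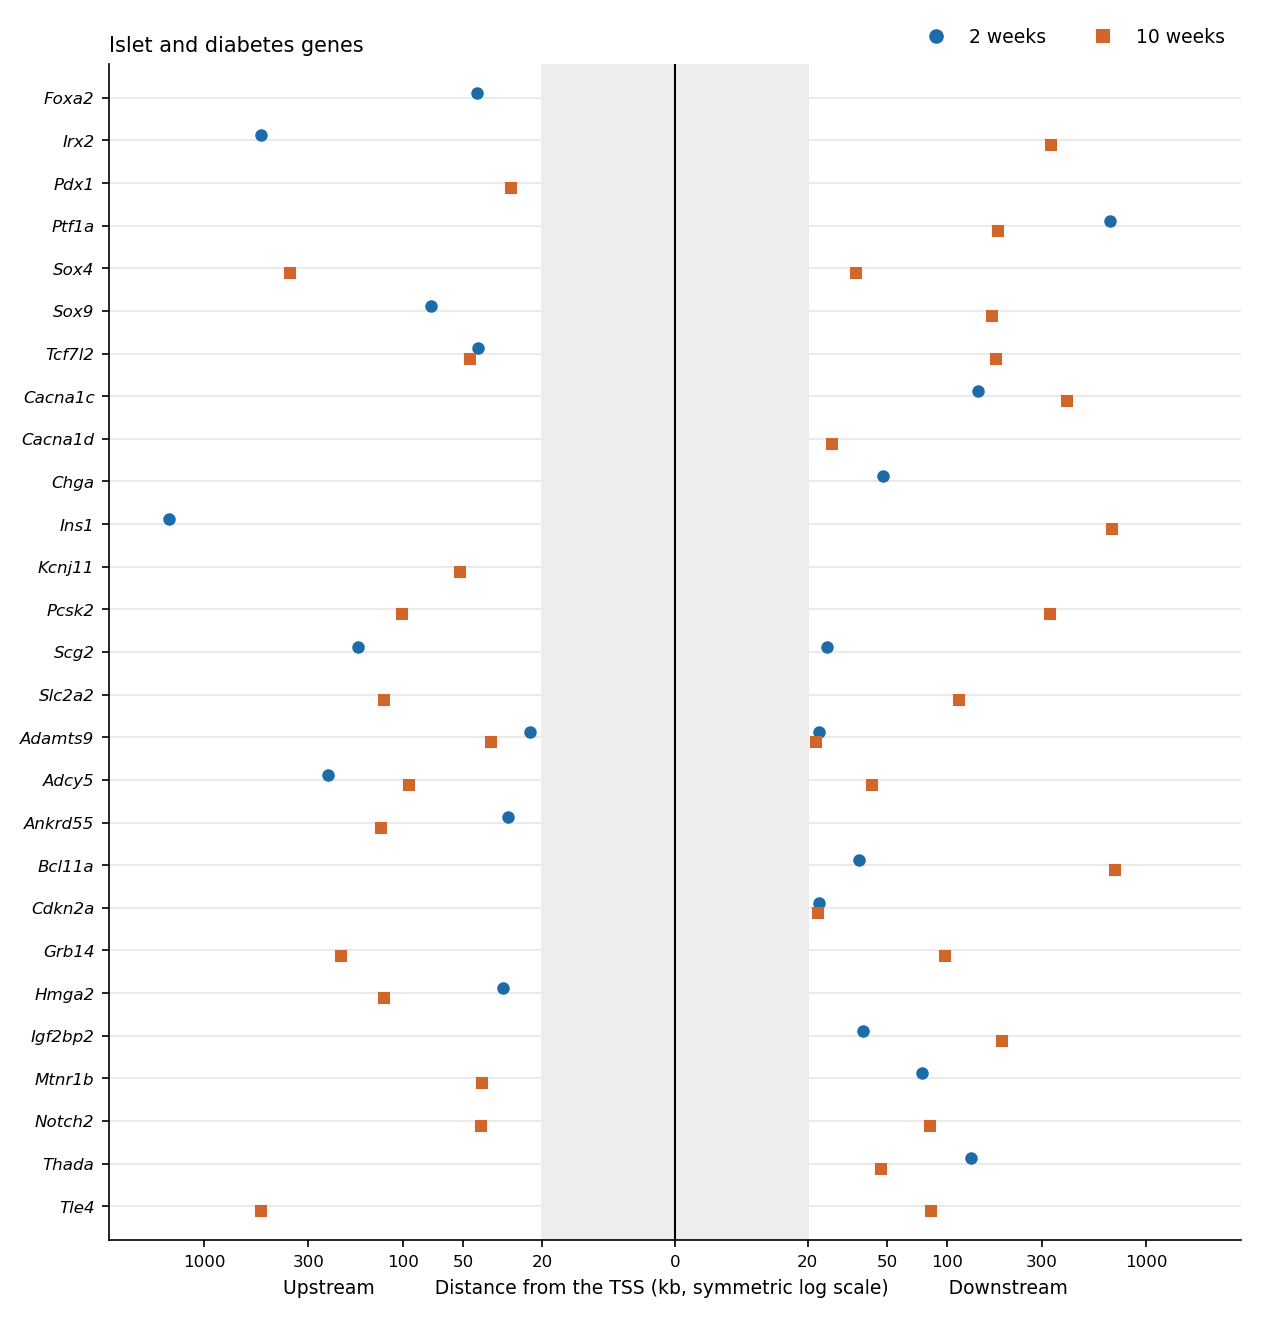
Distal H3K27Ac regions around the TSS of genes of islet transcription factors, hormones and secretion, and diabetes risk loci, with distance in kb on a symmetric log scale, upstream to the left, circles for 2 weeks and squares for 10 weeks, and the span within 20 kb, which the rule empties, in grey. The circle and the square coincide closely at Cdkn2a and on the downstream side of Adamts9 and lie 4300 bp apart at Tcf7l2.

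Genes named for diabetes risk loci were neighbours in 13 of 33 cases (39.4%) at 2 weeks and 17 of 33 (51.5%) at 10 weeks, against 18.4% and 21.8% of all genes. Of the 33, 10 were neighbours at both ages (1643 of 17411 for all genes). Their median spacing was 111 kb, and genes spaced 100 to 300 kb apart were neighbours in 41.6% and 47.9% of cases. By the stricter count, 14 (42.4%) and 17 (51.5%) were neighbours, against 36.0% and 42.4% of genes with such spacing. Among the 10 genes listed at both ages, 2 carried a region at the same place at both ages. Of all 1643 genes that were neighbours at both ages, 157 (9.56%) did, and the difference was not tested. At Cdkn2a, the cyclin-dependent kinase inhibitor locus that restrains beta cell replication, the regions lay 22.7 kb downstream at 2 weeks (chr5:107808701-107809700) and 22.5 kb downstream at 10 weeks (chr5:107808201-107809900). Their starts were 500 bp apart, and differential H3K4me3 regions started 100 bp from the first and at the same base as the second. Adamts9, a secreted metalloprotease, was flanked at both ages. Its downstream regions lay at 22.9 kb (chr4:124834201-124835400) and 22.1 kb (chr4:124835201-124836200), 1000 bp apart, and its upstream ones at 23.2 and 36.1 kb.

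At the other risk genes listed at both ages, no 2-wk and 10-wk starts lay within 1 kb of each other, as for most neighbours at both ages among all genes. Igf2bp2, an RNA-binding protein, had regions 37.8 and 189 kb downstream, the later one 8554 bp from Senp2. Adcy5, an adenylyl cyclase, had one 240 kb upstream at 2 weeks and was flanked at 41.9 and 93.3 kb at 10 weeks. Hmga2, an architectural chromatin protein, had regions 31.6 and 125 kb upstream, Ankrd55 29.7 and 129 kb upstream, and Bcl11a, a zinc finger repressor, 36.2 and 703 kb downstream. Thada had its regions 132 and 46.7 kb downstream, and Mtnr1b, the melatonin receptor of islets, 74.7 kb downstream and 40.2 kb upstream. In none of these did the starts lie within 5 kb of each other, while those of Tcf7l2, described above, were 4300 bp apart. Of all placed distal regions, 12.6% at 2 weeks and 10.7% at 10 weeks had a distal region of the other age within 5 kb. Grb14, an adaptor that inhibits the insulin receptor, was a neighbour at 10 weeks only and flanked at 97.7 and 205 kb, yet the nearer region (chr3:50955101-50956700) started 100 bp from a distal region of 2-wk islets whose neighbouring gene was another one. Tle4, a corepressor, and Notch2 were flanked at 10 weeks too, at 83.1 and 518 kb and at 40.7 and 82.5 kb.

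Genes of insulin and growth factor signalling were neighbours in 19 of 31 cases (61.3%) at 2 weeks and 16 (51.6%) at 10 weeks, against 18.4% and 21.8% of all genes. Of the 31, 11 were neighbours at both ages (1643 of 17411 for all genes). Their median spacing was 158 kb, and 41.6% and 47.9% of genes 100 to 300 kb from the next were neighbours. By the stricter count, the list had 12 (38.7%) and 15 (48.4%), against 36.0% and 42.4% of genes with such spacing, so the larger count at 2 weeks was lost. The receptors Egfr, Fgfr1, Fgfr2, Ghr and Igf1r were neighbours at both ages. The regions of Egfr lay 62.5 and 56.0 kb downstream, those of Fgfr1 97.0 and 112 kb upstream and those of Igf1r 172 kb downstream and 96.2 kb upstream. Ghr, the growth hormone receptor, was flanked at 2 weeks at 24.8 kb downstream (chr2:53287801-53289100) and 97.7 kb upstream (chr2:53411601-53414500), with H3K4me3 regions 200 and 500 bp from these, and had a region 91.6 kb upstream at 10 weeks. Downstream in the pathway, Foxo3, a forkhead factor held back by Akt, had regions 47.9 and 53.1 kb downstream, 5200 bp apart, and Pik3ca, the catalytic subunit of phosphoinositide 3-kinase, 44.5 and 28.6 kb upstream. Mtor, the growth-regulating kinase, and Rptor, its partner, had theirs 111 and 273 kb downstream at 2 weeks and 39.8 and 33.8 kb downstream at 10 weeks. Other genes were closer to the 2-wk regions, Zmat3 for Pik3ca at 39792 bp, Masp2 for Mtor at 38861 bp and Chmp6 for Rptor at 48878 bp. Tsc2, an inhibitor of that kinase, had them 70.0 and 77.9 kb downstream, though Pkd1 was closer to both, at 9387 and 2487 bp. Pik3r1 and Fgf14 were flanked at 10 weeks, and Met, the receptor of hepatocyte growth factor, had a region 25.6 kb upstream at 2 weeks.

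Genes of Wnt, TGF-beta and Notch signalling were neighbours in 19 of 44 cases (43.2%) at 2 weeks and 27 (61.4%) at 10 weeks, against 18.4% and 21.8% of all genes. Of the 44, 10 were neighbours at both ages (1643 of 17411 for all genes). With a median spacing of 144 kb, they compare with genes 100 to 300 kb from the next, of which 41.6% and 47.9% were neighbours. The stricter count gave 17 (38.6%) and 22, against 36.0% and 42.4% of such genes. Bmp7, a bone morphogenetic protein, had regions 38.1 kb (chr3:170916701-170917700) and 39.7 kb (chr3:170915101-170916100) downstream that started 1600 bp apart. Tgfbr2, the type II receptor of TGF-beta, was flanked at both ages, at 36.1 kb downstream and 74.0 kb upstream at 2 weeks and at 59.7 and 143 kb at 10 weeks. Tgfb2, a ligand of that receptor, had a region 104 kb downstream at 2 weeks and was flanked at 86.9 kb downstream and 21.2 kb upstream at 10 weeks, the last 15907 bp from Rrp15. The intracellular members Smad2 and Smad3 were flanked at 10 weeks, and Smad7, the inhibitory one, had regions 20.7 kb downstream at 2 weeks and 74.5 kb upstream at 10 weeks. In the Wnt pathway, Wnt5b and Wnt7b, both ligands, had regions at both ages, those of Wnt5b 34.3 and 69.5 kb downstream, the later one 17582 bp from Adipor2, and those of Wnt7b 84.3 and 64.9 kb upstream. Mirlet7c-2 was the closer gene for both regions of Wnt7b, at 39212 and 58612 bp. Lef1, a partner of beta-catenin, had regions 28.0 and 135 kb downstream, the later one 26067 bp from Hadh. Ctnnb1, beta-catenin itself, was flanked at 2 weeks at 46.5 and 65.4 kb. Hey2, a target of Notch, had regions 56.2 and 24.6 kb downstream, the later one with an H3K4me3 region 2100 bp from it, Hey1 was flanked at 10 weeks, and Notch1 had a region 22.7 kb downstream at 10 weeks. Bmp4 had regions at both ages, the 10-wk one listed at 2596 kb. Dkk3, a secreted protein related to Wnt antagonists, had a region 26.6 kb upstream at 2 weeks.

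**Figure D5:**
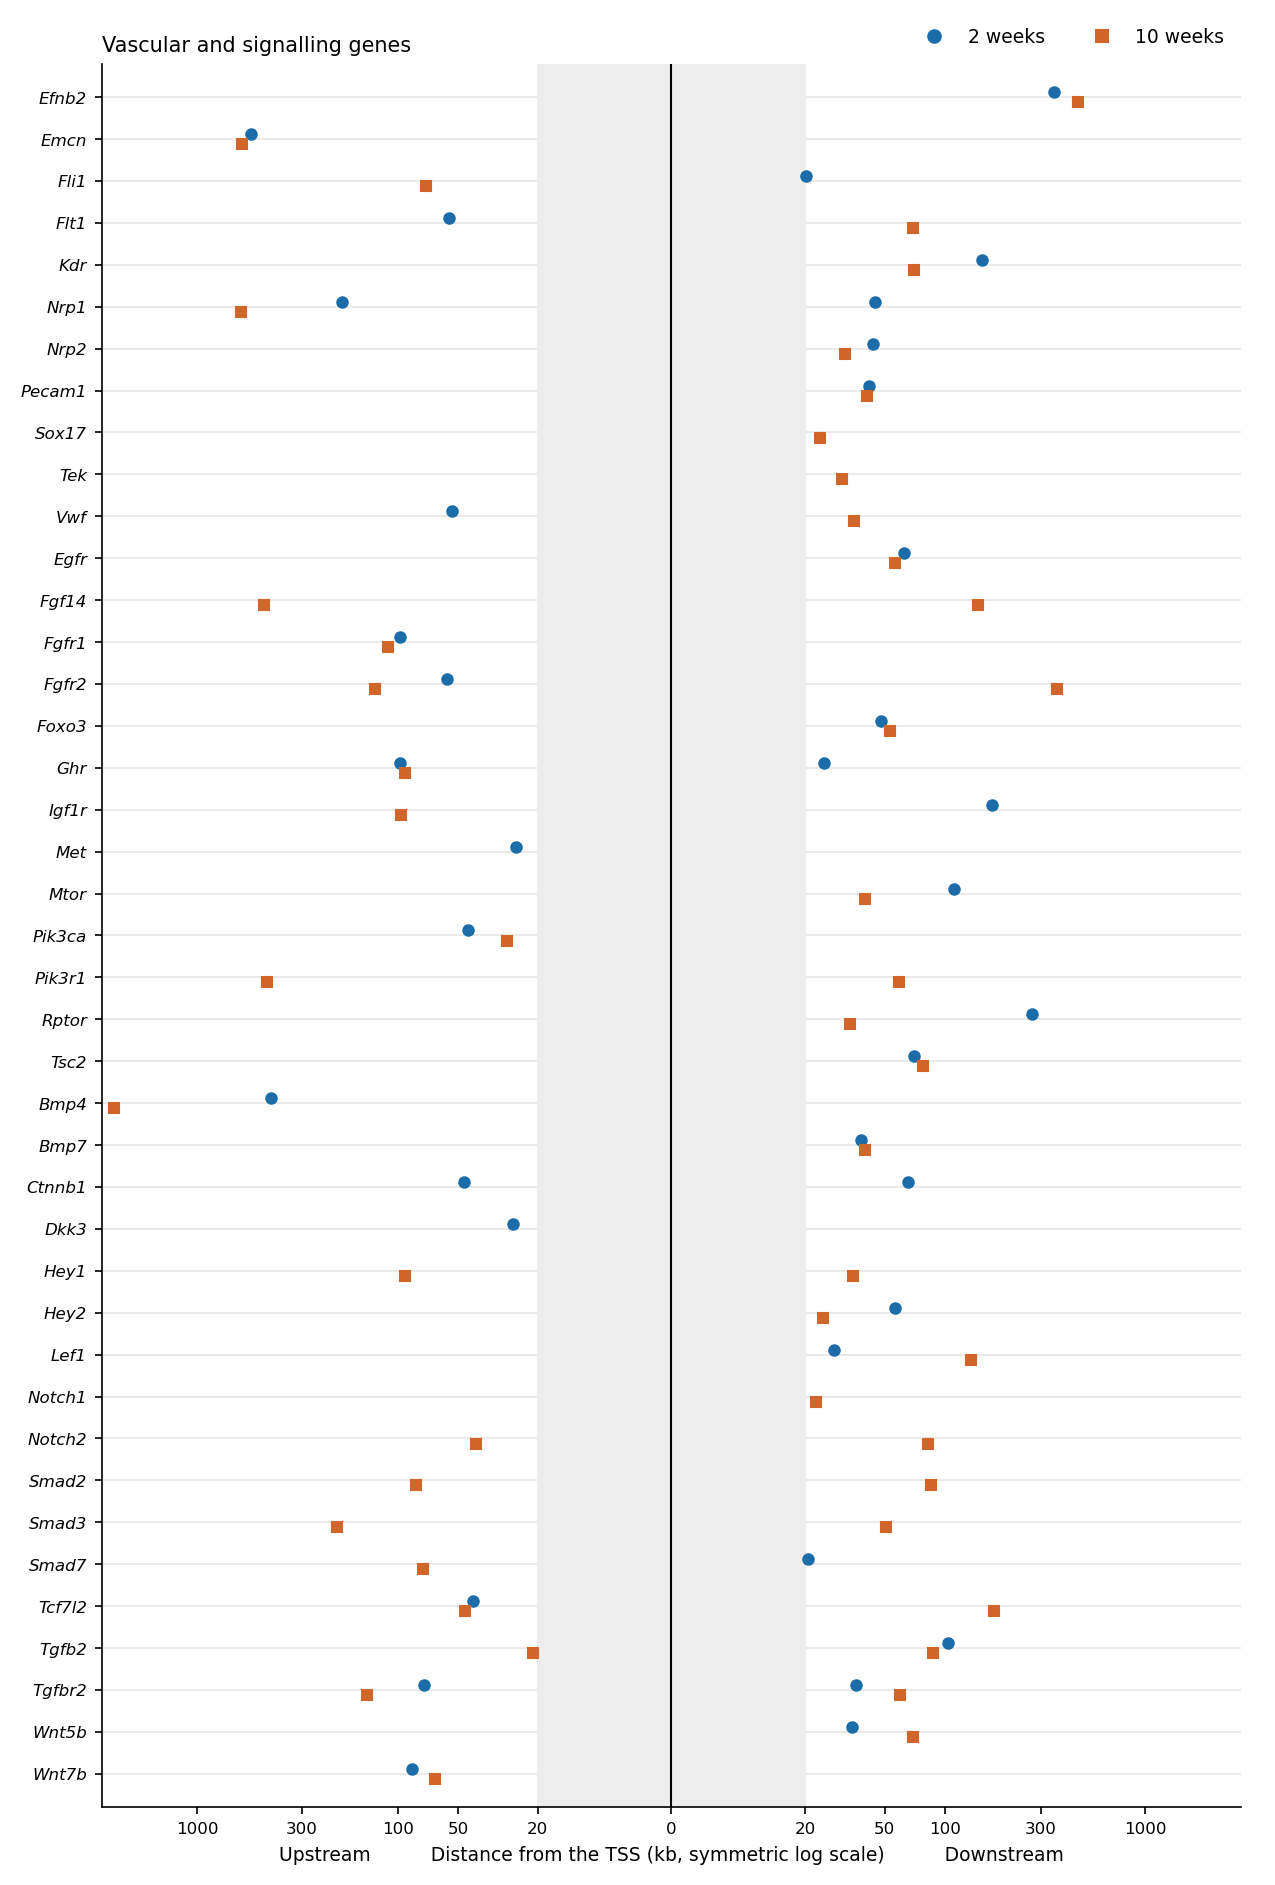
Distal H3K27Ac regions around the TSS of genes of endothelium and angiogenesis, insulin and growth factor signalling, and Wnt, TGF-beta and Notch signalling, with distance in kb on a symmetric log scale, upstream to the left, circles for 2 weeks, squares for 10 weeks and the span within 20 kb in grey. The circle and the square lie 1400 bp apart at Pecam1 and 1600 bp at Bmp7, and between 4300 and 6900 bp apart at Tcf7l2, Foxo3, Egfr, Tsc2 and the upstream side of Ghr.

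Endothelial and angiogenic genes were neighbours in 16 of 27 cases (59.3%) at 2 weeks and 12 (44.4%) at 10 weeks, against 18.4% and 21.8% of all genes. Of the 27, 9 were neighbours at both ages (1643 of 17411 for all genes), and the median spacing of the list was 78.4 kb. Genes spaced 30 to 100 kb apart were neighbours in 22.5% and 28.3% of cases, below this list at both ages, but the stricter count gave 10 (37.0%) and 14 (51.9%), against 18.1% and 23.5% of genes with such spacing, and with that the larger count at 10 weeks. Pecam1, the platelet and endothelial adhesion molecule CD31, had regions 41.7 kb (chr10:94869801-94871500) and 40.6 kb (chr10:94871201-94872600) downstream whose starts were 1400 bp apart, so that they overlapped without counting as the same place. Kdr and Flt1, the receptors of vascular endothelial growth factor, had regions 153 kb downstream and 55.2 kb upstream at 2 weeks and 69.9 and 69.3 kb downstream at 10 weeks. The 2-wk region listed for Flt1 lay 1459 bp from the TSS of the proteasome factor Pomp. Their coreceptors Nrp1 and Nrp2 also had regions at both ages. Nrp2 had them 43.9 and 31.9 kb downstream, and Nrp1 was flanked at 2 weeks at 44.7 kb downstream and 190 kb upstream and had a region 605 kb upstream at 10 weeks. Fli1, an ETS factor of endothelium and blood, had regions 20.3 kb downstream and 72.2 kb upstream, and Vwf, the von Willebrand factor, 53.2 kb upstream and 35.0 kb downstream. Efnb2 and Emcn had theirs over 300 kb away, and Ppp3ca was closer to both regions of Emcn, at 186169 and 128769 bp. Tek, the angiopoietin receptor, and Sox17 had regions at 10 weeks, 30.8 and 23.9 kb downstream.

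Axon guidance and synaptic adhesion genes, many of which are very long and lie alone, were neighbours in 18 of 42 cases (42.9%) at 2 weeks and 25 (59.5%) at 10 weeks, against 18.4% and 21.8% of all genes. Of the 42, 13 were neighbours at both ages (1643 of 17411 for all genes). Their median spacing was 781 kb, and of all genes spaced 300 kb or more from the next, 44.9% and 52.5% were neighbours. The stricter count gave 17 (40.5%) and 21 of 42, against 39.3% and 44.0% of genes with such spacing. Slit1, a ligand of Robo receptors, was flanked at both ages, and its upstream regions, at 79.7 and 79.3 kb, started 400 bp apart. Sema3e, a semaphorin, had a 2-wk region 231 kb upstream (chr4:17825201-17829900) that was 800 bp from a 10-wk distal region and 1100 bp from an H3K4me3 region, and a 10-wk region 65.5 kb upstream. Cdh2, the N-cadherin that joins beta cells, had regions 68.4 and 42.6 kb downstream, and an H3K4me3 region had the same start as the second (chr18:8321601-8323400). Unc5b, a netrin receptor, had them 93.8 and 141 kb upstream, Kirrel3 136 kb downstream and, at 10 weeks, 240 kb upstream and 130 kb downstream, and the receptors Robo1 and Robo2 between 132 and 940 kb. Efna5, Sema3c, Tenm2, Slit2, Ncam2 and Unc5d completed those with regions at both ages, though those of Slit2 were listed at 2082 and 2291 kb, with Fam184b closer. Ntn1, a netrin, and Tenm3 were flanked at 2 weeks and Cdh8 at 10 weeks, and Robo3 had a 10-wk region 23.6 kb upstream. The upstream region of Cdh8 was listed at 3266 kb, and Cdh11 was the closer gene, at 372342 bp.

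Matrix and mesenchymal genes were neighbours in 9 of 25 cases (36.0%) at 2 weeks and 11 (44.0%) at 10 weeks, against 18.4% and 21.8% of all genes. Of the 25, 5 were neighbours at both ages (1643 of 17411 for all genes). Their median spacing was 71.7 kb, and genes 30 to 100 kb from the next were neighbours in 22.5% and 28.3% of cases. The stricter count left 3 of 25 genes at 2 weeks, a smaller share than the 18.1% of genes with such spacing, and 10 of 25 at 10 weeks, a larger share than their 23.5%. Acta2, the actin of smooth muscle and activated stellate cells, had regions 36.7 kb (chr1:252511801-252513700) and 42.8 kb (chr1:252506201-252507600) downstream, with H3K4me3 regions 1000 and 700 bp from them, and Stambpl1 was the closer gene for both, at 14349 and 8749 bp. Col1a1, a chain of type I collagen, had regions 246 and 242 kb upstream, and Xylt2 was the closer gene for both, at 98916 and 103216 bp. Dcn, the proteoglycan decorin, had regions 197 and 204 kb upstream, and Col4a1, a basement membrane collagen, 103 kb downstream at 2 weeks and on both sides at 10 weeks. Twist2 had regions 143 kb upstream and 130 kb downstream. Col5a1 was flanked at 2 weeks and Pdgfb, a growth factor for pericytes, at 10 weeks, while Pdgfrb, its receptor, had a 2-wk region 33.8 kb downstream and Des, the pericyte and muscle filament desmin, a 10-wk region 21.1 kb upstream that lay 19802 bp from Dnpep. The region listed for Pdgfrb was closer to Csf1r, at 32391 bp, and started 2800 bp from the 10-wk region listed for Csf1r.

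Immune genes were neighbours in 9 of 35 cases (25.7%) at 2 weeks and 12 (34.3%) at 10 weeks, against 18.4% and 21.8% of all genes. Of the 35, 6 were neighbours at both ages (1643 of 17411 for all genes). Their median spacing was 61.0 kb, at which 22.5% and 28.3% of genes were neighbours, and the stricter count gave 6 (17.1%) and 8 (22.9%), against 18.1% and 23.5% of genes with such spacing. Cd3e, described above, Cd8a, a coreceptor of cytotoxic T cells, Il2ra, the interleukin 2 receptor chain, Csf1r, the receptor that macrophages need, Nfkb1 and Runx3 were those at both ages. The regions of Cd8a lay 66.6 and 38.7 kb downstream, those of Il2ra 66.3 and 42.6 kb downstream, and those of Nfkb1 32.9 kb downstream and 21.7 kb upstream. Csf1r had a region 22.8 kb downstream at 2 weeks and 29.3 kb upstream at 10 weeks (chr18:56401301-56402600), with an H3K27me3 region 600 bp from the latter. Runx3 was listed with a region on both sides at 2 weeks and Irf8, a factor of myeloid cells, at 10 weeks, but Clic4 was the closer gene for a 2-wk and a 10-wk region of Runx3, at 3569 and 16869 bp, and Cox4i1 for the upstream region of Irf8, at 7143 bp.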

How the data were processed

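ChIP-Seq of H3K4me3, H3K27me3 and H3K27Ac was compared between IUGR and control islets at 2 and 10 weeks. The labels name Trimmomatic 0.32, Bowtie2, SAMtools 0.1.19 and MACS2 2.1.0, whereas the paper's methods name STAR for mapping to rn6 and diffReps for differential enrichment. The diffReps settings are not given in the sources used here. The authors' deposited table lists, for 17411 genes, the closest differential region at lower and at higher coordinates than the TSS, with its start and distance. Its 6 log2 fold change columns hold the authors' own comparisons and were not used, so whether a region was higher or lower in IUGR islets is not reported.

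Region names join chromosome and start without a separator. Names with more than 1 reading were settled by the chromosomes of the listed genes in a RefSeq table of assembly GRCr8, used for names and chromosomes only, and 12 distal regions could not be placed. TSS and region ends were derived from starts and distances, and tested on simulated data. Python 3.11.15, pandas 2.3.3, NumPy 2.4.6, SciPy 1.17.1 and Matplotlib 3.10.9 were used. Groups came from the labels, and no test was made, since no value per library is given.

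Genes named are, with official symbols only, list genes with a region at both ages or on both sides, the 2 closest per list and age, neighbours of the 10 closest regions found at both ages, of the 3 farthest, of the 2 on each side of 20 kb at each age, and of the largest groups. The members and gene lists were chosen with earlier results of these data known. Alternatives were other distances, windows, merging, gene symbols and neighbour rules. Some genes that this rule takes are not reported here, in the text or in the plots. No sequence is shown, since a genome of this build was not used here.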

Additional observations from a re-analysis of the deposited data

How the results depend on the processing

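Of 38 alternative values for 10 counts, 22 stayed within 1.5 times the main count. These were the number of distal regions beyond 10 kb, recomputed to every derived TSS, merged within 1 or 5 kb, or with official symbols only, the match to any region of the other age, the gene at the recomputed distance, and the alternatives limited to regions beyond 20 kb of every derived TSS, which were chosen after seeing the data. Of the others, most changed a distance or window limit, and the last pair counted more than 1 gene for a region. Beyond 50 kb, 2184 regions remained at 2 weeks and 2462 at 10 weeks, and beyond 100 kb 1263 and 1378. Regions at both ages numbered 22 and 22 with identical starts, 444 and 452 within 5 kb, and 609 and 613 within 10 kb. Within 5 kb, H3K4me3 was beside 529 and 613 distal regions and H3K27me3 beside 303 and 315. Counting every gene for which a region is listed gave 9012 and 9547 genes. No paired analysis was possible because the table holds no value per library, and for the same reason no library could be left out and the depth is unknown. The threshold behind the authors' calls is not given in the sources used here, so a missing region does not show equal acetylation.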

Other observations

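The share of all genes that neighboured a distal region was 18.4% at 2 weeks and 21.8% at 10 weeks. Genes of acinar and ductal cells, the exocrine tissue around islets, were neighbours in 3 of 25 cases at 2 weeks and 5 at 10 weeks, with a median spacing of 28.4 kb. Of all genes 10 to 30 kb from the next, 10.4% and 11.5% were neighbours. Ctrb1, a chymotrypsinogen, was listed with regions on both sides at 10 weeks, but the one 56.0 kb downstream, which had an H3K4me3 region 1000 bp from it, lay 4964 bp from Ldhd and the upstream one 19283 bp from Bcar1. The region of Cel, the bile salt lipase, was listed 23.2 kb downstream and lay 7381 bp from Ralgds. Slc4a4, a bicarbonate transporter of ducts, and Spp1, osteopontin, had regions 50.8 and 48.3 kb upstream at 2 weeks. Neural and glial genes were neighbours in 4 of 23 cases (17.4%) and 6 (26.1%), with a median spacing of 39.1 kb, and of genes 30 to 100 kb from the next, 22.5% and 28.3% were. Gfra1, a receptor of glial cell line-derived neurotrophic factor, had regions at both ages at 52.1 and 459 kb, its partner Ret was flanked at 10 weeks at 26.9 and 189 kb, and S100b, a glial calcium-binding protein, had a region 27.7 kb downstream at 10 weeks. Ntrk2 was listed with regions on both sides at 10 weeks, the upstream one 19309 bp from Slc28a3, and Dbh, of noradrenaline synthesis, and Sox10, of Schwann cells, had 2-wk regions at 39.2 and 40.8 kb.

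Genes of endoplasmic reticulum stress were neighbours in 5 of 26 cases (19.2%) and 3 (11.5%), with a median spacing of 27.2 kb. By the stricter count, the list had 5 (19.2%) and 6 (23.1%). That count keeps only regions beyond 20 kb of every derived TSS and gives each to its closest one, so it can name other genes than the main count. Of genes 10 to 30 kb from the next, 7.16% and 8.86% were neighbours by the stricter count and 10.4% and 11.5% by the main one. Ern1, the stress sensor IRE1, had regions 44.0 and 26.2 kb upstream, the later one 1800 bp from an H3K4me3 region. Atf3, a stress-induced factor, had regions 57.5 kb upstream and 58.3 kb downstream, the later one 19502 bp from Fam71a. Dnajb9, a chaperone, had a 10-wk region 53.2 kb upstream, and Pdia4, a disulfide isomerase, a 2-wk region 35.2 kb downstream.

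The number of distal regions per listed gene differed between chromosomes. Per 100 listed genes, chromosome 18 had 27.6 at 2 weeks and 36.1 at 10 weeks, chromosome 17 had 29.1 and 33.1, and chromosome 14 had 28.4 and 32.3. Chromosome 10 had 15.5 and 18.6, chromosome 7 had 15.6 and 19.9, and the X chromosome 10.9 and 11.9. In number, chromosome 10 had 225 and 269 distal regions and chromosome 18 had 111 and 145, with 1448 and 402 listed genes. Widely spaced genes were more often neighbours, as given above, and chromosome length did not enter these rates. The part of gene spacing in them was not tested. The X chromosome also had few H3K27Ac regions of any kind, 132 and 172, of which 48.5% and 40.7% were distal.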
